A study of Mus musculus with 32 samples.

Results

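This account covers the loss of Kat7, also called Hbo1, in bone marrow progenitor cells of mice whose Mx1Cre recombinase was switched on with polyIC. It rests on the 8 progenitor libraries of that Cre line, chosen by their labels, out of 32 libraries in the series: 4 knockouts and 4 controls, each from its own mouse, 2 females and 2 males in each group. In each of these groups libraries 1 and 2 came from females and libraries 3 and 4 from males. Every gene that passed the filter on low counts was tested, 13692 in all. The knockouts were adult C57BL/6 Hbo1fl/fl;Mx1Cre mice given polyIC, with both alleles deleted. The controls were adult C57BL/6 Hbo1fl/+;Mx1Cre mice, in which 1 allele was deleted; they carried the same Cre and received the same agent, and the treatment protocol of the labels calls the controls wild type. Mx1-Cre is driven by an interferon-responsive promoter and polyIC induces interferon, so both groups had been exposed to an interferon inducer. The remaining libraries of the study were of LSK cells, a stem cell-containing marrow fraction named for its lack of lineage markers and its Sca-1 and Kit, from the same mice, and of progenitors and LSK cells from mice with a tamoxifen-activated CreER. The CreER knockouts were Hbo1fl/fl;CreER with both alleles deleted, and the CreER controls Hbo1fl/+;CreER with 1 allele deleted. CreER control 4 and CreER knockout 3 were males and the other CreER mice females. The labels do not describe the gate of the progenitor sort.

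HBO1 is a histone acetyltransferase of the MYST family, which works in complexes that acetylate lysines of histones H3 and H4, H3K14 among them. Scaffold proteins of the BRPF and JADE families direct it to its histone targets, and the ING4, ING5 and MEAF6 subunits complete the complex. Progenitors below the stem cell give rise to the granulocyte, monocyte, mast cell, erythroid and megakaryocyte lineages, and each lineage has well-known transcription factors and products that serve as its markers in RNA.

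Between 7275277 and 15549957 reads were counted per library. The sex-linked genes matched the sex on the label in 8 of 8 libraries. Progenitor identity was checked first. Mpo, the myeloperoxidase of granulocyte-monocyte precursors, had medians of 14660 CPM in knockout progenitors and 21150 CPM in control progenitors. In LSK cells its medians were 13150 CPM in knockouts and 12330 CPM in controls. The Mpo ranges of progenitors and LSK cells overlapped in the knockouts (14460 to 18150 against 12560 to 16230 CPM) but not in the controls. Ly6a, which encodes Sca-1, was low in both progenitor groups. Its medians were 2.53 CPM in knockout and 3.00 CPM in control progenitors, against 20.3 CPM in knockout and 17.5 CPM in control LSK cells. CPM here are read counts scaled to a common library size by the TMM method. Control 1 had the steepest trend with gene length. The slope of its log2 level on the log2 exon length of the gene, relative to the mean of all 16 progenitor libraries, was -0.36. The slope was -0.30 in knockout 4 and -0.13 in knockout 3, and from -0.05 to 0.04 in the other 5 libraries. Short genes therefore read relatively high and long genes relatively low in control 1, and counts of calls that move without it are given both ways.

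Kat7 (chr11:95271853-95310246, mm10) was checked as the targeted gene. It had 1.19, 1.61, 1.39 and 1.47 CPM in the knockouts, against 39.1, 70.8, 63.5 and 66.6 CPM in the controls. All knockouts were far below all controls, and the control with the length trend was the lowest of the 4 controls. The log2 fold change, knockout over control, was -5.41 ± 0.36 (SE; adjusted p = 1.28e-07 in edgeR's quasi-likelihood test, as for every adjusted p below), and -5.56 ± 0.30 without control 1 (adjusted p = 1.08e-08). The mean residual level was 2.36% of control. Of the other 9 subunit genes tested, Jade2, a scaffold subunit, alone passed the test. It had 53.9, 58.1, 43 and 38.8 CPM in the knockouts, against 17.3, 36.9, 32.3 and 31.1 CPM in the controls, a change of 0.73 ± 0.20 (adjusted p = 0.0402). Every knockout was above every control. Without control 1, the lowest control, the change was 0.55 ± 0.15 (adjusted p = 0.0302); the call was lost without control 3, control 4, knockout 1, knockout 2 or knockout 3 (adjusted p up to 0.121). The remaining 8 subunit genes, Ing4, Ing5, Meaf6, Jade1, Jade3, Brpf1, Brd1 and Brpf3, had log2 fold changes between -0.13 and 0.35. None of 10 other histone acetyltransferase genes passed the test with all 8 libraries, and 1 rose without control 1, beside 4.41% of all genes.

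Loss of Kat7 was accompanied by more falls than rises. At an adjusted p under 0.05, 834 genes changed, 6.09% of those tested: 615 fell (4.49%) and 219 rose (1.6%). Of these, 413 fell and 129 rose at least 2-fold. The groups did not overlap for 819 genes with the knockouts below (5.98%) and 467 with the knockouts above (3.41%), 9.39% of genes in all. Without control 1, 1537 of 13832 genes changed (11.1%), of which 927 fell (6.7%) and 610 rose (4.41%). The calls shared between both fits numbered 774, all in the same direction; 60 were lost and 763 were new. The share of falls among the calls was 73.7% with control 1 and 60.3% without it. The newly called rises were short genes, with a median exon length of 1969 bases, and the newly called falls long ones, with 4038 bases, against 2620 bases over all genes tested. With the trend on gene length removed and control 1 kept, 1190 genes changed (8.69%), of which 793 fell (5.79%) and 397 rose (2.9%). Those counts rest on a spread estimated over the 16 progenitor libraries. With only the 8 Mx1Cre libraries fitted, 337 genes changed, 266 lower and 71 higher. The DESeq2 test gave 1264 genes, 845 lower and 419 higher, and limma with quality weights 1350 genes, 873 lower and 477 higher. Leaving out knockout 1 gave 550 calls; leaving out each of the 6 libraries other than knockout 1 and control 1 gave 582 to 803.

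Of the calls described for single genes, 41 were lost with only the 8 libraries fitted and 47 were kept. The lost ones included 7 of the 9 class I genes that fell, all but Tap1 and H2-Q6. They also included Iigp1, Oas1a, Oas1g, Xaf1 and Gbp3 of the interferon-stimulated genes, and all 5 interferon receptor and signalling genes that fell. The losses extended to Ly86 and Zeb2 among monocyte genes, Itgb3, Pf4 and Vwf among megakaryocyte genes, Slc4a1 among erythroid genes, Il1rl1 and Srgn among mast cell genes, and H2-DMa of class II. Jade2, Pbx3, Cstdc5, Peg10, Bank1, Blnk, Cd27, Cd48, Eng, Il6st, Bcl2, Tcf4, Id2, Mcm6 and Cyc1 were lost as well. Sdc2, Tnfsf4, Robo3, Gpr174, Mx2, Cd5 and Mecom did not pass the filter on low counts in that fit.

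**Figure D1:**
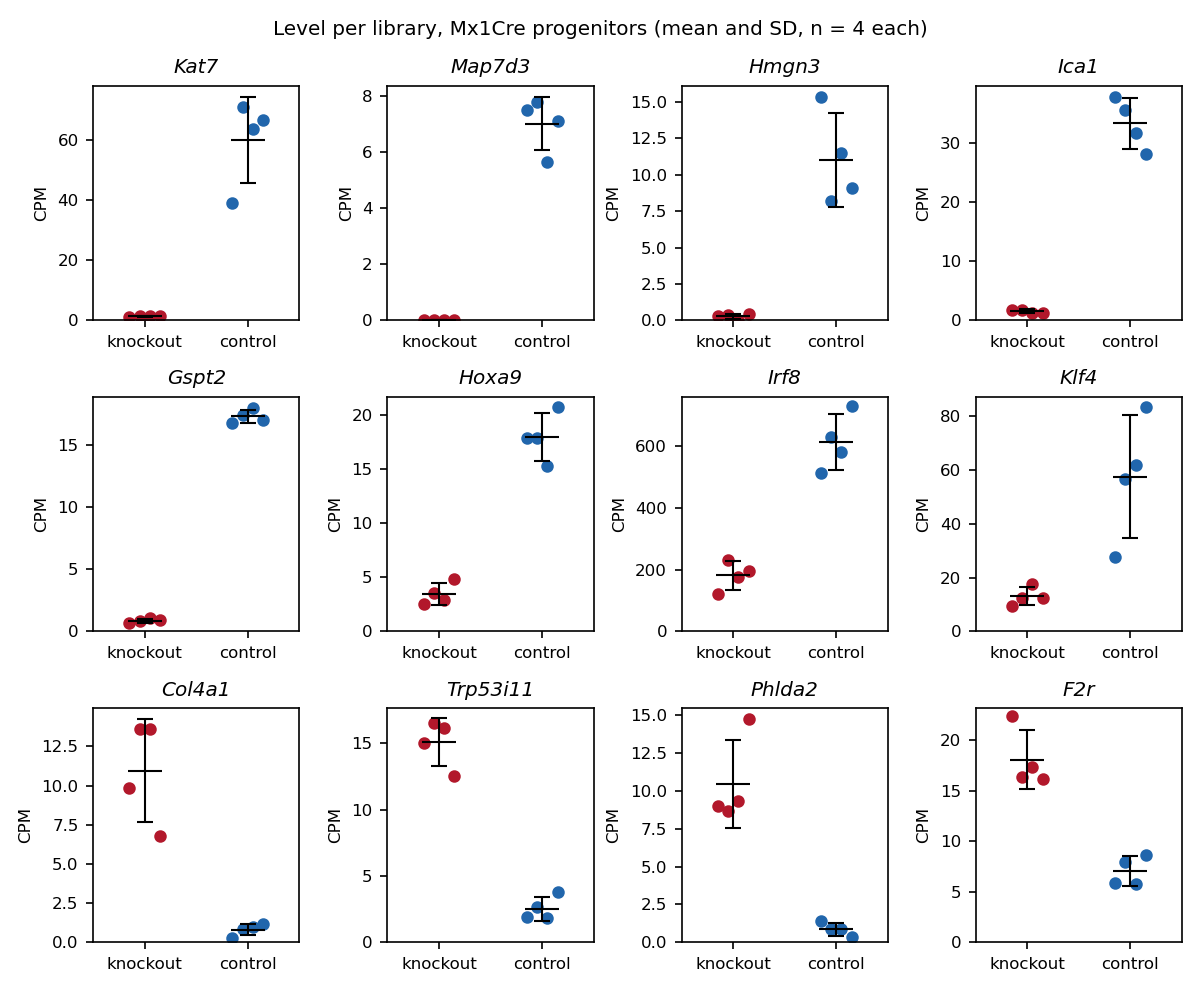
Level of 12 genes in each Mx1Cre progenitor library, in CPM (linear axes from 0), knockouts in red on the left and controls in blue on the right; points are libraries, bars the mean and SD of 4. In all 12 genes every knockout lies on the same side of every control; Kat7, Map7d3, Hmgn3, Ica1 and Gspt2 are close to 0 in the knockouts.

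Genes called in the same direction with and without control 1 were ranked by fold. They also had to show no overlap between the groups and a mean level of at least 1 log2 CPM over the 16 progenitor libraries. The 12 largest falls were of Map7d3, Tmem178, Pls3, Car12, Zfp970, Kat7, Sdc2, Hmgn3, Afap1, Zfp820, Btbd3 and Ppic. Map7d3, which encodes a microtubule-binding protein, had 0, 0, 0 and 0 CPM in the knockouts, against 7.48, 7.76, 5.63 and 7.11 CPM in the controls. No read was counted in any knockout, against 320 reads in the controls, so the level was at least 104-fold lower in the knockouts, with the floor set at 3 counts over the group. Pls3, which encodes an actin-bundling plastin, had 0.0626, 0, 0 and 0.147 CPM in the knockouts, against 3.19, 3.3, 4.16 and 3.69 CPM in the controls. Its log2 fold change was -5.99 ± 0.58 (adjusted p = 1.15e-05). Hmgn3, a nucleosome-binding protein, had 0.313, 0.34, 0 and 0.442 CPM in the knockouts, against 15.3, 8.17, 11.5 and 9.09 CPM in the controls; the change was -5.29 ± 0.52 (adjusted p = 1.40e-05). Both genes were at or near 0 in every knockout and expressed in every control.

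Further members of this group ranged over adhesion, cytoskeleton and enzyme genes. Tmem178, a transmembrane protein, had 0, 0.17, 0 and 0 CPM in the knockouts, against 11.1, 5.78, 4.28 and 7.11 CPM in the controls (-6.98 ± 0.93, adjusted p = 2.11e-04). Car12, a membrane carbonic anhydrase, had 0, 0.0849, 0.214 and 0 CPM in the knockouts, against 2.89, 5.12, 5.51 and 4.41 CPM in the controls (-5.80 ± 0.56, adjusted p = 1.15e-05). Sdc2, a heparan sulfate proteoglycan, changed by -5.36 ± 0.75, and Afap1, an actin filament-associated protein, by -4.89 ± 0.50. Afap1 had 2, 1.1, 1.39 and 0.442 CPM in the knockouts, against 25.1, 47.9, 53.9 and 31.2 CPM in the controls, with the groups far apart. Btbd3 changed by -4.72 ± 0.42 and Ppic, a cyclophilin, by -4.61 ± 0.30. The zinc finger genes Zfp970 (-5.68 ± 0.30) and Zfp820 (-4.75 ± 0.60) fell as well, but they belong to families of close copies whose reads cannot always be assigned. Without control 1 the 11 genes other than Map7d3 had log2 fold changes from -6.66 to -4.47. Their calls in that fit were fixed by the rule that chose them. None of the 12 lost its call when any 1 of the other libraries was left out.

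Further steep falls had some of the lowest p-values. Ica1, which encodes an islet cell autoantigen of the secretory pathway, had 1.82, 1.78, 1.29 and 1.18 CPM in the knockouts, against 37.8, 35.6, 31.7 and 28.1 CPM in the controls, with a change of -4.41 ± 0.21 (adjusted p = 7.40e-09). Gspt2, which encodes a translation release factor, had 0.689, 0.849, 1.07 and 0.884 CPM in the knockouts, against 16.8, 17.4, 18 and 17 CPM in the controls, with a change of -4.31 ± 0.22 (adjusted p = 8.78e-09). In both the 4 libraries of a group lay close together and the groups were far apart. In all, 88 genes fell at least 8-fold. Their median level in controls was 3.53 CPM, against 32.5 CPM over all genes tested, and 2 of them had no read in any knockout. Of the 88, 8 were X-linked (9.09%), among them Map7d3, Pls3 and Gspt2, against 424 of the 13692 genes tested (3.10%).

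The 12 largest rises by the same rule were Tnfsf4, Cstdc5, Aoc1, Col4a1, Phlda2, Padi3, Peg10, Ltbp4, Robo3, Bank1, Nebl and Gpr174. The rule ranks by fold and takes the minimum level as a mean over all 16 progenitor libraries, so low levels in the controls are in part fixed by the choice. Tnfsf4, the OX40 ligand, had 0.94, 0.17, 0.643 and 0.295 CPM in the knockouts, against 0, 0, 0 and 0 CPM in the controls. It was read 25 times in the knockouts and never in the controls, at least 8.53-fold higher in the knockouts with the floor at 3 counts over the group; it met the minimum level through CreER progenitors, where it averaged 9.15 ± 1.81 CPM in knockouts and 8.49 ± 3.28 CPM in controls (SD, n = 4 each). Aoc1, a diamine oxidase, had 6.39, 5.86, 7.29 and 4.86 CPM in the knockouts, against 0.37, 0.0826, 0.367 and 0.72 CPM in the controls. Its log2 fold change was 3.96 ± 0.46 (adjusted p = 5.04e-05). Every knockout was several times above the highest control.

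Col4a1, a collagen of basement membranes, had 9.84, 13.6, 13.6 and 6.78 CPM in the knockouts, against 0.296, 0.826, 0.979 and 1.17 CPM in the controls, a change of 3.76 ± 0.39 (adjusted p = 2.00e-05) and 3.47 ± 0.37 without control 1. Phlda2 had 9.02, 8.66, 9.32 and 14.7 CPM in the knockouts, against 1.41, 0.908, 0.857 and 0.36 CPM in the controls, a change of 3.52 ± 0.37 (adjusted p = 1.87e-05). Phlda2, Peg10 and Cdkn1c are imprinted genes, expressed from 1 parental allele. Peg10 had 3.13, 3.06, 1.5 and 1.03 CPM in the knockouts, against 0.667, 0.0826, 0.122 and 0.09 CPM in the controls, and its change of 3.06 ± 0.60 became 4.42 ± 0.67 without control 1, the highest control. Cdkn1c, the CDK inhibitor p57, had 3.7, 1.44, 6 and 1.92 CPM in the knockouts, against 0.37, 0.33, 0 and 0.54 CPM in the controls. It changed by 3.29 ± 0.64 (adjusted p = 0.00474). It alone of 17 cyclin, CDK and CDK inhibitor genes passed the test with all 8 libraries, beside 1.6% rises over all genes. Without control 1, 2 of these genes rose, beside 4.41% of all genes. Nebl, an actin-binding nebulin relative, rose by 2.94 ± 0.44, and Padi3, a peptidylarginine deiminase, by 3.07 ± 0.38. Trp53i11 had 15, 16.6, 16.2 and 12.5 CPM in the knockouts, against 1.93, 2.64, 1.84 and 3.78 CPM in the controls, a change of 2.56 ± 0.26 (adjusted p = 1.42e-05). Ltbp4, which binds latent TGF-beta, rose by 3.00 ± 0.44, the axon guidance receptor Robo3 by 2.96 ± 0.57 and the receptor Gpr174 by 2.92 ± 0.66. Bank1, a B cell scaffold protein, rose by 2.94 ± 0.68 but lost its call without knockout 3 (adjusted p up to 0.0521). Cstdc5 (4.57 ± 0.95) belongs to a cluster of near-identical stefin genes, and its assignment is uncertain.

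Several monocyte genes fell in the knockout progenitors. Of 24 monocyte and macrophage genes tested, 8 fell and none rose, beside 4.49% falls over all genes, with a median log2 fold change of -0.82, against -0.01 over all genes tested; the fallers were Irf8, Klf4, Csf1r, Ccr2, Ly86, Ms4a6c, Ly6c2 and Zeb2. Irf8, the transcription factor that directs progenitors to the monocyte and dendritic fates, had 121, 232, 177 and 196 CPM in the knockouts, against 512, 631, 582 and 729.6 CPM in the controls. All knockouts were below all controls, with a change of -1.75 ± 0.24 (adjusted p = 2.41e-04) and -1.83 ± 0.24 without control 1. Klf4, a transcription factor of monocyte differentiation, had 9.52, 12.5, 17.6 and 12.5 CPM in the knockouts, against 27.9, 56.7, 61.8 and 83.5 CPM in the controls, a change of -2.14 ± 0.36 (adjusted p = 0.00147). Ccr2, the chemokine receptor of inflammatory monocytes, had 63, 93.3, 82.5 and 96.5 CPM in the knockouts, against 208, 248, 194 and 219.8 CPM in the controls, a change of -1.38 ± 0.19 (adjusted p = 2.45e-04). Neither pair of groups overlapped. Csf1r, the receptor of macrophage colony-stimulating factor, changed by -1.17 ± 0.25 and Ms4a6c by -1.23 ± 0.20. Without control 1, 11 monocyte genes fell, beside 6.7% of all genes, F13a1, Cx3cr1 and Ifi207 being added; without knockout 3, 5 did. The call of Ly86 was lost without knockout 3 (adjusted p up to 0.0522), that of Ly6c2 without control 4, knockout 1, knockout 2 or knockout 3 (adjusted p up to 0.0872) and that of Zeb2 without control 2, control 3, knockout 1, knockout 3 or knockout 4 (adjusted p up to 0.0923); the other 5 kept theirs in each case.

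In these bulk samples, fewer cells of a type and less RNA per cell cannot be told apart. The summed level of the 13 progenitor markers ran from 24870 to 29180 CPM in knockouts and from 35570 to 38610 CPM in controls, without overlap. Mpo was the largest part of this sum and did not pass the test (-0.39, adjusted p = 0.42). Elane alone of the 13 passed. Ms4a3, Gata1 and Klf1 had positive log2 fold changes and the others negative ones. The summed level of the 5 neutrophil markers ran from 1636 to 15100 CPM in knockouts and from 681 to 7728 CPM in controls; none of the 5 passed the test. The 6 macrophage markers summed to 33.4 to 37.5 CPM in knockouts and to 20.9 to 68.9 CPM in controls. No marker of these 3 types was at 0 in all 8 libraries, and their part in the monocyte result was not tested. Among 19 granulocyte-monocyte progenitor genes, Irf8 and Csf1r fell along with Elane, the neutrophil elastase, beside 4.49% falls over all genes. Elane had 2184, 2725, 2683 and 3364 CPM in the knockouts, against 7438, 5563, 5010 and 5540 CPM in the controls, without overlap, and a change of -1.10 ± 0.31 (adjusted p = 0.0484), but the call was lost whichever of the 8 libraries was left out, with adjusted p from 0.0557 to 0.149. None of 20 neutrophil granule and maturation genes passed the test, at a median of 0.75. S100a8, an alarmin of neutrophils, had 1610, 759.9, 4412 and 3119 CPM in the knockouts, against 486, 243, 786 and 2537 CPM in the controls, with groups that overlapped (1.29 ± 0.65, adjusted p = 0.324). Of 11 dendritic cell genes, Tcf4 fell and Id2 rose, beside 4.49% falls and 1.6% rises over all genes. Both calls were lost when some single libraries were left out, among them knockout 3 and knockout 4.

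Hoxa3, Hoxa5, Hoxa7 and Hoxa9 fell in the knockout progenitors. Hox genes encode the transcription factors that sustain immature myeloid progenitors, and are known to be silenced as cells mature. They were 4 of 13 tested Hoxa, Hoxb and cofactor genes, beside 4.49% falls over all genes; Pbx3, a cofactor, rose, beside 1.6% rises. Hoxa9 (chr6:52223097-52227370, mm10) had 2.57, 3.56, 2.89 and 4.86 CPM in the knockouts, against 17.9, 17.9, 15.3 and 20.8 CPM in the controls. The groups were well apart, with a change of -2.40 ± 0.23 (adjusted p = 1.15e-05) and -2.40 ± 0.24 without control 1. Hoxa7 had 2, 2.8, 1.5 and 2.65 CPM in the knockouts, against 10.8, 13.8, 16.9 and 13.4 CPM in the controls, a change of -2.61 ± 0.31 (adjusted p = 6.77e-05). Hoxa3 (-2.40 ± 0.46) and Hoxa5 (-1.94 ± 0.38) were lower still in level, at up to 0.626 and 1.38 CPM in knockouts and at least 2.16 and 2.61 CPM in controls. These 4 falls were called whichever library was left out, and Hoxa6 joined them without control 1 (-2.87). Pbx3 had 13.6, 10.02, 8.25 and 8.84 CPM in the knockouts, against 5.48, 6.69, 5.39 and 4.14 CPM in the controls (0.91 ± 0.22, adjusted p = 0.0173), and its call was lost without control 4 or knockout 1 (adjusted p up to 0.0791). Of 24 stem cell transcription factors, Mecom alone fell, no more than the share over all genes; its change was -2.29 ± 0.61 (adjusted p = 0.0326), and the call was lost without control 1, control 2, knockout 1, knockout 2, knockout 3 or knockout 4 (adjusted p up to 0.0999). Without control 1, 4 of the 24 fell and 2 rose, beside 6.7% and 4.41% of all genes.

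Antigen presentation genes of MHC class I fell in part. MHC class I molecules display peptides cut by the immunoproteasome and carried by the TAP transporter, and interferon is known to raise the whole pathway. Of 17 class I presentation genes, 9 fell and none rose, beside 4.49% falls over all genes; with all 8 libraries the 17 log2 fold changes were negative, with a median of -0.75. The fallers were H2-K1, H2-D1, B2m, Tap1, Psmb8, Nlrc5, H2-Q4, H2-Q6 and H2-Q7. Tap1, a TAP subunit, had 129, 128, 171 and 155 CPM in the knockouts, against 317, 343, 228 and 258 CPM in the controls, a change of -0.98 ± 0.15 (adjusted p = 8.31e-04) and -0.91 ± 0.15 without control 1. H2-K1, a classical class I heavy chain, had 727, 759.8, 1139 and 1152 CPM in the knockouts, against 2178, 1523, 1190 and 1459 CPM in the controls (-0.75 ± 0.18, adjusted p = 0.0211). In both genes knockouts 1 and 2 were the lowest libraries and knockouts 3 and 4 lay closer to the controls. Knockouts 1 and 2 came from females and knockouts 3 and 4 from males. The gene length slopes were 0.015 and 0.003 in knockouts 1 and 2, and -0.13 and -0.30 in knockouts 3 and 4. The class I genes had a median exon length of 1536 bases, against 2620 over all genes tested. With the length trend removed, 12 of the 17 fell, beside 5.79% of all genes, and the median was -0.73. The parts of sex and of the length trend in this division were not tested. H2-Q6 (-2.07 ± 0.25) and H2-Q7 (-1.505 ± 0.29) showed the largest falls of the list, but they and H2-Q4 are close copies and their separate values are uncertain.

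Without control 1, the library with the highest summed level of the list, 7 of the 17 fell, beside 6.7% of all genes, B2m and Psmb8 being lost, and the median was -0.55. Other single libraries mattered as well: 3 fell without knockout 1, 4 without knockout 2, 5 without control 4, 6 without control 2 and 11 without control 3. H2-D1, with a change of -0.70 ± 0.17 and groups that overlapped, was lost without control 4, knockout 1 or knockout 2 (adjusted p up to 0.0654); H2-K1 was lost without knockout 1 or knockout 2 (adjusted p up to 0.0795). Tap1, H2-Q6 and H2-Q7 kept their calls whichever library was left out. Of 10 MHC class II genes, H2-DMa (-1.19 ± 0.24) and H2-DMb1 (-1.04 ± 0.17) fell, beside 4.49% falls over all genes. These are the chains that load peptides on class II, and both calls held whichever library was left out.

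Some interferon-stimulated genes fell, and their levels varied among libraries. Of 43 tested, 7 fell and none rose, beside 4.49% falls over all genes, with a median of -0.51: Iigp1, Ifi44, Mx2, Oas1g, Oas1a, Xaf1 and Gbp3. Iigp1, an immunity-related GTPase, had 0.0626, 0, 1.29 and 1.03 CPM in the knockouts, against 8.74, 11.2, 0.612 and 5.31 CPM in the controls. Control 3 lay within the range of the knockouts, and the change was -3.73 ± 0.90 (adjusted p = 0.0197). Ifi44 had 0.313, 0.34, 0.857 and 0.442 CPM in the knockouts, against 5.48, 3.63, 1.1 and 2.52 CPM in the controls (-2.79 ± 0.57, adjusted p = 0.00709), with controls that differed widely among themselves but all above the knockouts. Gbp3, a guanylate-binding protein, had 73, 80.5, 93.3 and 93.4 CPM in the knockouts, against 139, 130.1, 107 and 127 CPM in the controls (-0.56 ± 0.15, adjusted p = 0.0312). Ifi44 alone of the 7 kept its call whichever library was left out. Without control 1, 5 of the 43 fell, beside 6.7% of all genes. Isg20 and Oasl1 rose there (1.18 and 0.86), close to the 4.41% of all genes that rose. The number that fell was 1 without knockout 1, 2 without knockout 2, 3 without control 4, 4 without control 2 or knockout 4, and 8 without control 3. Over all genes 409 fell without knockout 1, so that 1 of 43 was no more than the general share there.

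Of 22 interferon receptor and signalling genes, 5 fell and none rose, beside 4.49% falls over all genes. They were Ifnar1, a chain of the type I interferon receptor, Irf9 and Irf5, which are interferon regulatory factors, Socs1 and Cgas. Cgas, the sensor of cytosolic DNA, had 40.7, 50.6, 35.9 and 29.5 CPM in the knockouts, against 45, 77, 82.1 and 67.9 CPM in the controls (-0.79 ± 0.18, adjusted p = 0.0131), and control 1 was the only control within the knockouts' range. Socs1, an inhibitor of cytokine signalling, had 1.75, 1.27, 1.82 and 1.33 CPM in the knockouts, against 3.63, 3.88, 3.18 and 4.77 CPM in the controls (-1.31 ± 0.34, adjusted p = 0.0304). Irf9 changed by -0.55 ± 0.14 and Ifnar1 by -0.53 ± 0.13. Irf9 lost its call without control 2, control 4, knockout 2 or knockout 4 (adjusted p up to 0.106), Socs1 without control 2, control 4, knockout 1, knockout 2, knockout 3 or knockout 4 (adjusted p up to 0.0902) and Ifnar1 without control 2, control 3, control 4, knockout 1, knockout 3 or knockout 4 (adjusted p up to 0.0907). Without control 1, 8 of the 22 fell, beside 6.7% of all genes, Ifnar2, Ifngr2 and Sting1 being added. Leaving out control 2 or control 4 left 1, close to the share over all genes. Leaving out knockout 1, 2 or 4 left 2, and control 3 or knockout 3 left 3. Interferon response and Cre induction both follow polyIC in these mice, and the labels give no time between polyIC and sorting.

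**Figure D2:**
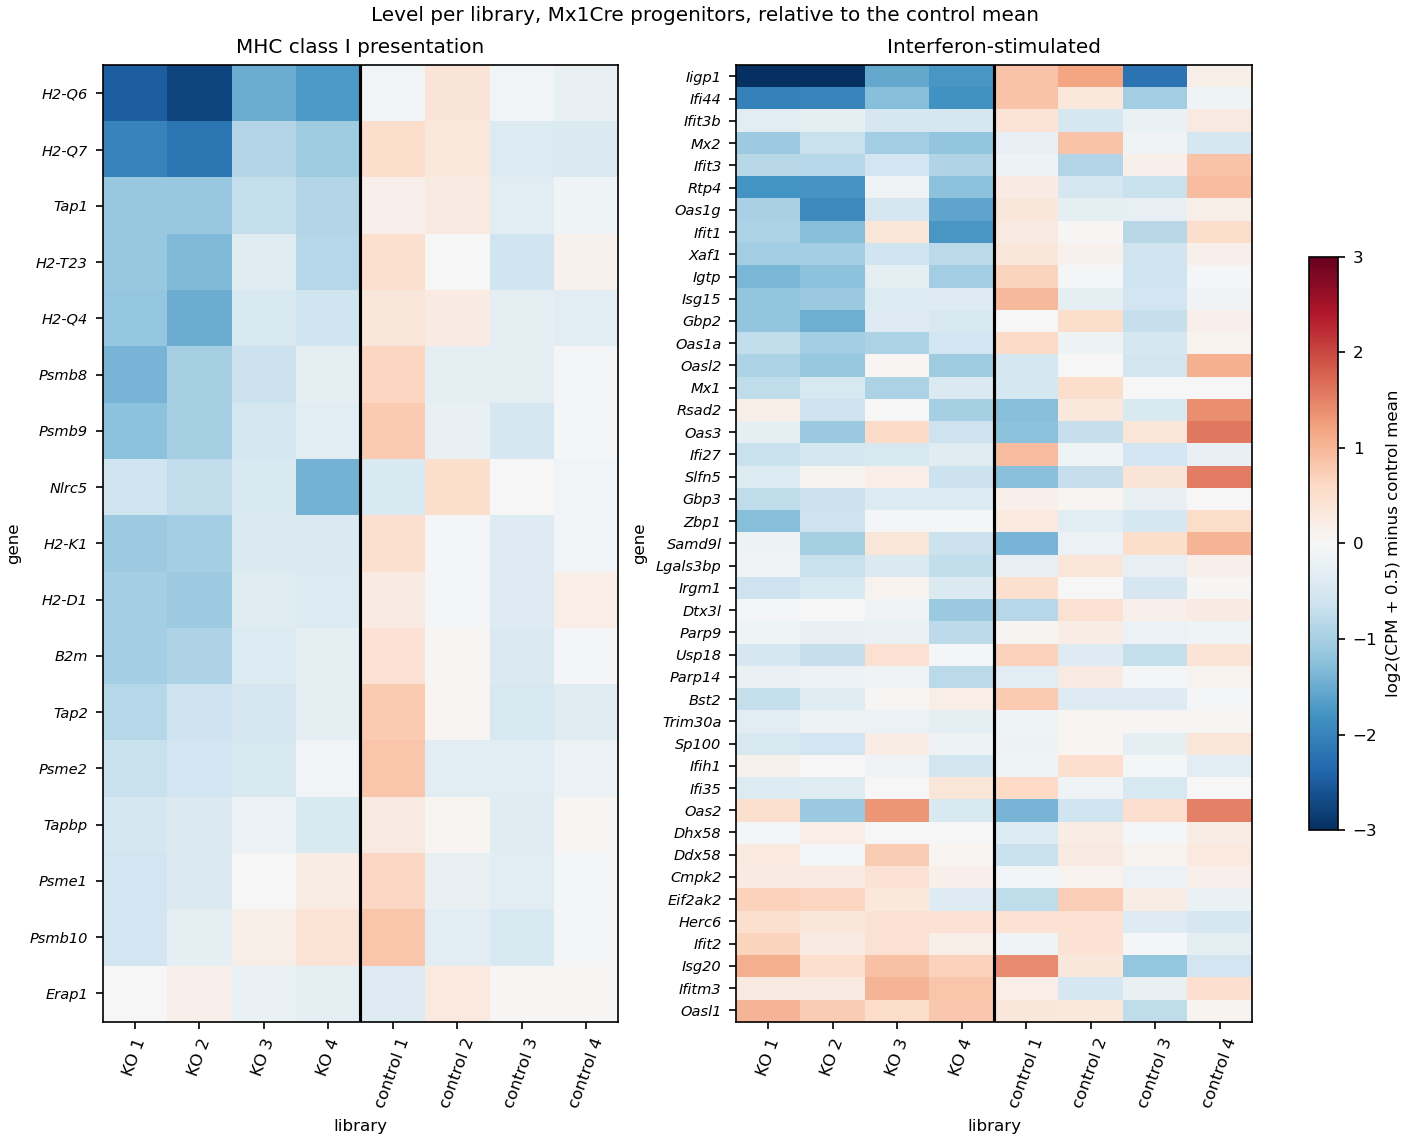
Level of 17 MHC class I presentation genes (left) and 43 interferon-stimulated genes (right) in each Mx1Cre progenitor library, as log2(CPM + 0.5) minus the mean of the 4 controls, on a scale from -3 (blue) to 3 (red); knockouts 1 to 4 stand left of the line and controls 1 to 4 right of it. Knockouts 1 and 2 are the bluest columns for class I, and the interferon-stimulated genes differ among the controls.

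The interferon-stimulated response element, to which IRF factors bind, was searched in RefSeq promoters of the same build (GRCm38.p6) as GAAANNGAAA on both strands, over windows from 250 bases before to 50 after each start. Of 27025 genes with a window, 1079 held it (3.99%). It was found in 19 of the 32 interferon-stimulated genes tested that had a window (59.4%), and in 4 of 15 class I genes (26.7%). Among the genes that fell it was found in 3 of 5 interferon-stimulated genes with a window, 1 of 8 class I genes and 1 of 5 signalling genes. The 250 bases before the start are shown for 4 of these 5, with the element in capitals; where 2 matches overlap, the capitals run over both. A match is a description of the sequence and no evidence of binding.
B2m (chr2:122147437-122147686, plus strand): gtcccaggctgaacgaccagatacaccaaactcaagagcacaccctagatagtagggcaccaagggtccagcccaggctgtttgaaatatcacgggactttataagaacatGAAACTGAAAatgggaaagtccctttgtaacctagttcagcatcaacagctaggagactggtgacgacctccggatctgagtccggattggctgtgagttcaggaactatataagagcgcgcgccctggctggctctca
Oas1a (chr5:120907526-120907775, minus strand): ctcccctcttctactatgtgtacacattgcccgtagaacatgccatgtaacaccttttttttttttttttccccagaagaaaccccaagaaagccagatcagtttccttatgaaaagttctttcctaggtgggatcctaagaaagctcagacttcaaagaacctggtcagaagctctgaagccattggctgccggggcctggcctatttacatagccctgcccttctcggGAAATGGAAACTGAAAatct
Gbp3 (chr3:142559794-142560043, plus strand): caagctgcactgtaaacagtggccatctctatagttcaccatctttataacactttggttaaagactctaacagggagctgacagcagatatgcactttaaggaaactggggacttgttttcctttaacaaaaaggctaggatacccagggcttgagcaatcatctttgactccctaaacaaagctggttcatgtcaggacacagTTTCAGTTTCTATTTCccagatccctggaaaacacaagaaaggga
Socs1 (chr16:10785537-10785786, minus strand): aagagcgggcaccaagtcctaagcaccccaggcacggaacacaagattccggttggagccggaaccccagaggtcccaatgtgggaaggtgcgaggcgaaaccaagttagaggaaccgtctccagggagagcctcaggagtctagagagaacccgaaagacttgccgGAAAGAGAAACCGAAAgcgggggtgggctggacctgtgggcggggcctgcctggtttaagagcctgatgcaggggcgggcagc
In B2m, the light chain of class I, the element began 139 bases before the start. It had 967, 1043, 1487 and 1611 CPM in the knockouts, against 2679, 2028, 1451 and 1923 CPM in the controls, a change of -0.66 ± 0.18 (adjusted p = 0.0367); without control 1, the highest library, it was -0.49 ± 0.16 (adjusted p = 0.0682), and the call was lost without control 1, control 2, control 4, knockout 1 or knockout 2 (adjusted p up to 0.129). Oas1a, an oligoadenylate synthetase, carried overlapping matches that began 20 bases before the start. It had 11, 8.91, 9.54 and 12.4 CPM in the knockouts, against 28.4, 16.8, 12.8 and 20.1 CPM in the controls, a change of -0.91 ± 0.25 (adjusted p = 0.0401) and -0.67 ± 0.23 without control 1 (adjusted p = 0.0764). Oas1a and its close paralog Oas1g may share reads. In Gbp3, where they lie on the opposite strand, and in Socs1 the matches began 45 and 83 bases before the start, and in both all knockouts were below all controls.

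Several mast cell, basophil and eosinophil genes fell in the knockouts. Of 19 tested, 5 fell and 1 rose, beside 4.49% falls and 1.6% rises over all genes, with a median of -0.74 and 15 negative log2 fold changes. Fcer1a, the alpha chain of the IgE receptor, had 0.626, 0, 0 and 0 CPM in the knockouts, against 5.71, 3.8, 3.06 and 4.77 CPM in the controls. It was detected in 1 of 4 knockouts and in every control, a change of -4.29 ± 0.89 (adjusted p = 0.00777) and -4.09 ± 0.98 without control 1. Itgb7, an integrin of mast cell progenitors, had 17.7, 18.8, 27.2 and 30.4 CPM in the knockouts, against 46.7, 52.8, 48.5 and 78.1 CPM in the controls (-1.27 ± 0.27, adjusted p = 0.0085). Prss34, a basophil protease, had 6.64, 1.53, 6.43 and 8.1 CPM in the knockouts, against 38.1, 26.1, 29.6 and 39.5 CPM in the controls (-2.58 ± 0.68, adjusted p = 0.032), without overlap, though its call was lost without control 1, control 3, control 4, knockout 1, knockout 2 or knockout 3 (adjusted p up to 0.0893). Prg2, the eosinophil major basic protein, changed by -3.14 ± 0.90 and Srgn, which packs granules, by -0.72 ± 0.19. Il1rl1, the IL-33 receptor, went the other way, with 52.9, 31.8, 30.2 and 21.7 CPM in the knockouts, against 24.7, 16.9, 11.8 and 11.2 CPM in the controls (1.08 ± 0.29, adjusted p = 0.0369). Without control 1, 4 fell, beside 6.7% of all genes, Prss34 and Prg2 being lost and Mitf added. Without control 4, 3 fell, and 2 did without knockout 1, 2 or 3. Prg2 lost its call without control 1, control 2, control 4, knockout 1, knockout 2, knockout 3 or knockout 4 (adjusted p up to 0.139) and Srgn without knockout 1, knockout 2 or knockout 3 (adjusted p up to 0.0894). The call of Il1rl1 was lost without control 2, control 3, control 4, knockout 1, knockout 2 or knockout 3 (adjusted p up to 0.162).

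Megakaryocyte genes rose in part. Of 19 megakaryocyte and platelet genes, Itgb3, F2r, Pf4 and Vwf rose and none fell, beside 1.6% rises over all genes, with a median of 0.74. F2r, the thrombin receptor PAR1, had 22.4, 16.4, 17.4 and 16.2 CPM in the knockouts, against 5.93, 8.01, 5.75 and 8.64 CPM in the controls, a change of 1.35 ± 0.32 (adjusted p = 0.0168). Itgb3, the integrin beta 3 of platelets, had 36.8, 50.8, 47.1 and 36.8 CPM in the knockouts, against 6.82, 22.7, 15.2 and 25.7 CPM in the controls (1.29 ± 0.29, adjusted p = 0.0132). Vwf, von Willebrand factor, had 24.4, 17, 10.7 and 12.5 CPM in the knockouts, against 2.37, 9.08, 2.81 and 2.97 CPM in the controls (1.90 ± 0.41, adjusted p = 0.0099). In all these genes every knockout was above every control. The 3 megakaryocyte markers summed to 5.79 to 9.59 CPM in knockouts and to 2.31 to 4.89 CPM in controls, and their part in these rises was not tested. Pf4, platelet factor 4, had 4.45, 6.79, 3.75 and 4.86 CPM in the knockouts, against 2.59, 0.413, 0.979 and 1.44 CPM in the controls, with control 1 the highest control; its change was 1.84 ± 0.40 and 2.41 ± 0.39 without that library. Itga2b, the partner of integrin beta 3, did not pass the test (0.36 ± 0.26, adjusted p = 0.567). The list gave 5 rises without control 1, beside 4.41% of all genes, Gp5 being added, and 3 without knockout 1. The call of F2r was lost without control 3 or knockout 1 (adjusted p up to 0.0614).

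Erythroid genes depended on control 1. Of 24 tested, Slc4a1, the band 3 anion exchanger of red cells, alone rose with all 8 libraries, beside 1.6% of all genes, and the median was 0.76. Without control 1, 14 rose, beside 4.41% of all genes, and the median was 1.25. No erythroid gene fell in either fit. Gata1, the master regulator of the lineage, had 78.2, 48.9, 65.6 and 62.6 CPM in the knockouts, against 121, 44.8, 12.1 and 19.3 CPM in the controls. Control 1 was the highest of all 8 libraries and controls 3 and 4 the lowest, so the change was 0.37 ± 0.48 (adjusted p = 0.81) with control 1 and 1.33 ± 0.34 (adjusted p = 0.0223) without it. Klf1 had 126, 88.8, 90.6 and 99.8 CPM in the knockouts, against 182, 80.6, 26.7 and 26.3 CPM in the controls (0.35 ± 0.44 with control 1, 1.20 ± 0.32 without). Epor, the erythropoietin receptor, changed by 0.71 ± 0.48 with control 1 and 1.58 ± 0.39 without it. Hbb-b1 and the other globin genes are near-identical copies; Hbb-b1 had 14.2, 7.72, 10.6 and 14.6 CPM in the knockouts, against 10.5, 1.65, 0.367 and 0.36 CPM in the controls.

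Genes of heme synthesis and iron uptake also depended on control 1. Heme synthesis and iron genes gave 0 rises of 21 with control 1 (1.6% over all genes) and 10 without it (4.41% over all genes), among them Tfr2 (1.13 ± 0.22, adjusted p = 0.00365, against 0.78 ± 0.26, adjusted p = 0.0947, with it). Slc4a1 had 10.3, 3.31, 3.21 and 1.47 CPM in the knockouts, against 1.04, 0.826, 0.245 and 0.18 CPM in the controls (2.95 ± 0.72, adjusted p = 0.0201), and this call was lost without control 3, control 4 or knockout 1 (adjusted p up to 0.121). The summed level of the 4 erythroblast markers ran from 31.7 to 68.4 CPM in knockouts and from 6.30 to 79.7 CPM in controls, where 79.7 was control 1 and the others reached 21.3 CPM. When the trend with gene length was removed and control 1 kept, 1 erythroid gene rose and the median was 0.79, against 1 gene and a median of 0.76 with the trend kept. The part of the erythroblast marker level in these results was not tested.

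**Figure D3:**
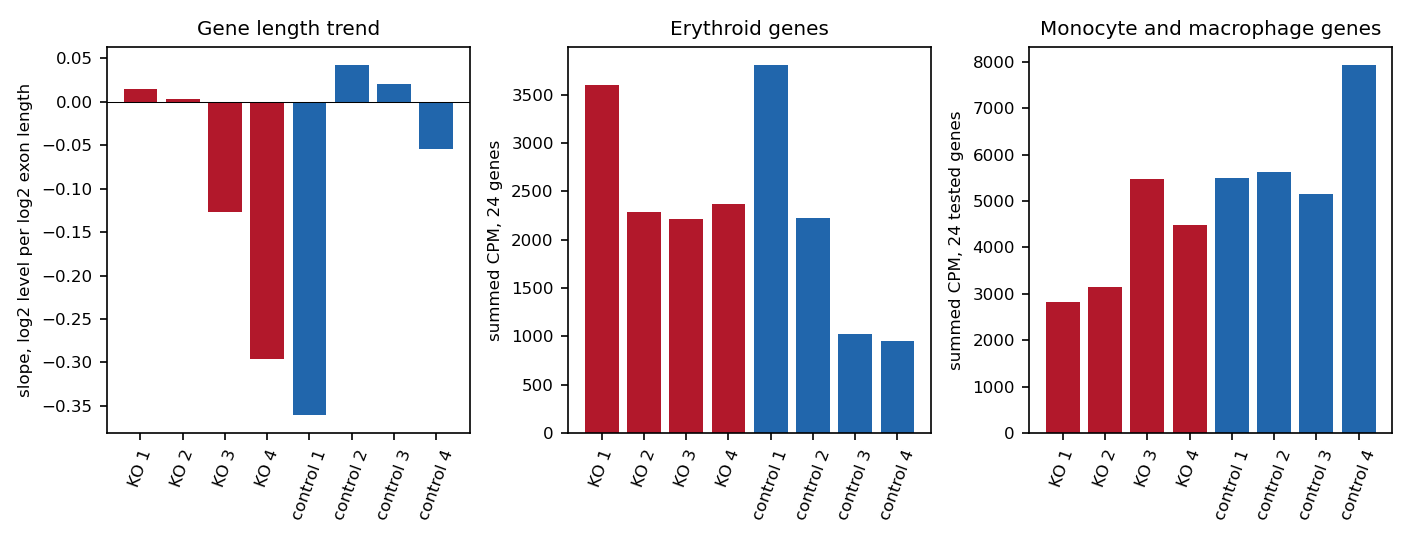
For each Mx1Cre progenitor library (knockouts in red at left, controls in blue at right): the slope of log2 level on log2 exon length (left panel), the summed CPM of 24 erythroid genes (middle) and of 24 monocyte and macrophage genes (right). Control 1 has the steepest negative slope and the highest erythroid sum of all 8 libraries, while its monocyte sum lies among the other controls.

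**Figure D4:**
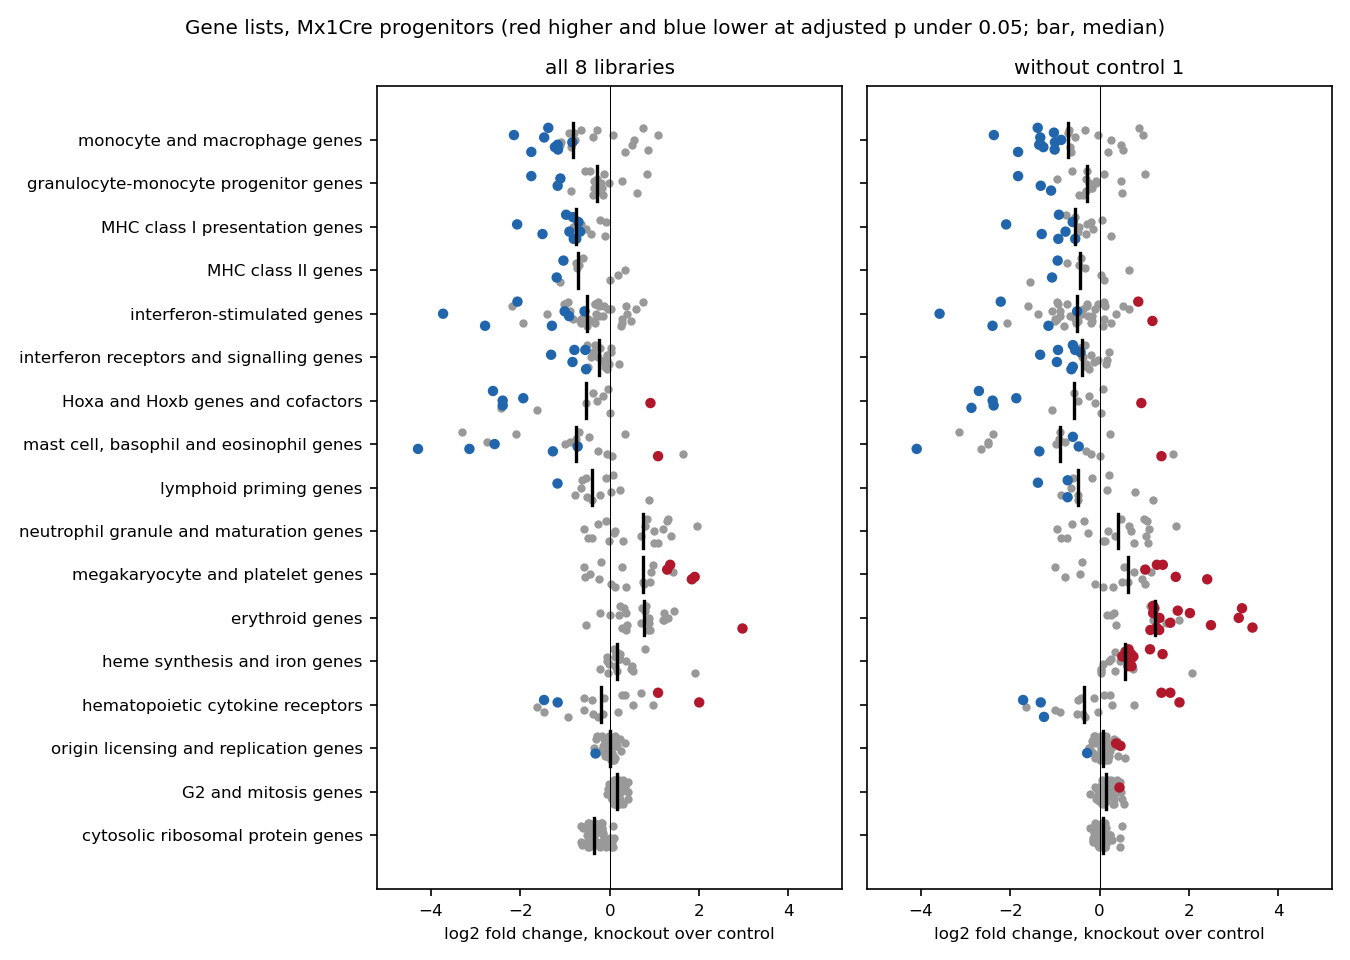
Log2 fold change, knockout over control, of the tested members of 17 gene lists, with all 8 libraries (left panel) and without control 1 (right panel); red points rose and blue points fell at an adjusted p under 0.05, grey points did not pass, and the black bar is the list median. Monocyte, class I and Hoxa falls stand in both panels, while the red erythroid and heme points and the shift of ribosomal protein genes to 0 appear in the right panel.

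Lists of growth and metabolism held few calls, at or near the shares of 4.49% falls and 1.6% rises over all genes. No gene of 46 for G2 and mitosis passed the test with all libraries (median 0.16), and 42 of the 46 log2 fold changes were positive; without control 1, 1 rose. Of 41 origin licensing and replication genes, Mcm6, a subunit of the replicative helicase, fell (-0.34 ± 0.09, adjusted p = 0.0347). Of 36 oxidative phosphorylation subunits, Cyc1 rose (0.39 ± 0.11, adjusted p = 0.0423). Both calls were lost without each of 6 single libraries, control 2 and knockouts 1 to 4 among them. The 56 cytosolic ribosomal protein genes held no call, and their median went to 0.06 without control 1, against -0.34 with it. None of 17 glycolysis enzymes and none of 18 immediate early genes passed with all libraries. Without control 1, 2 licensing genes rose and 1 fell, 4 oxidative phosphorylation genes and 1 glycolysis gene rose, and 1 immediate early gene fell. Over all genes 4.41% rose and 6.7% fell in that fit. Ccne1, cyclin E1, had 106, 86.8, 91.4 and 120.1 CPM in the knockouts, against 119.6, 59, 39.3 and 42.4 CPM in the controls; it was not called with all libraries (0.63 ± 0.27, adjusted p = 0.228) and rose without control 1 (1.12 ± 0.17, adjusted p = 6.50e-04).

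Lists of survival and stress genes held single calls. Over all genes 4.49% fell and 1.6% rose with all 8 libraries, and 6.7% fell and 4.41% rose without control 1. Of 22 p53 target genes, Sesn1, a stress-induced sestrin, fell, close to the 4.49% of all genes, and without control 1, 2 rose and 1 fell. It had 26.2, 22.1, 23.7 and 23 CPM in the knockouts, against 47, 46.6, 43.9 and 40.9 CPM in the controls, a change of -0.91 ± 0.10 (adjusted p = 4.10e-05), and the 4 libraries of each group lay within a narrow range. Of 12 BCL2 family genes, Bcl2 fell (-0.94 ± 0.23, adjusted p = 0.0205; -1.14 ± 0.17 without control 1), with control 1 inside the knockouts' range; the call was lost without control 2, control 3, control 4, knockout 1, knockout 3 or knockout 4 (adjusted p up to 0.0764). Without control 1, 1 BCL2 family gene rose and 1 fell. Of 20 cytokine receptor genes, Il1r1 and Il1rl1 rose and Csf1r and Il6st fell, beside 1.6% rises and 4.49% falls over all genes. Without control 1, 3 rose and 3 fell, beside 4.41% and 6.7% of all genes. Il1r1, the IL-1 receptor, had 17.6, 23.7, 12.9 and 14.6 CPM in the knockouts, against 2.22, 5.78, 3.67 and 5.49 CPM in the controls (2.00 ± 0.32, adjusted p = 0.00112), every knockout being above every control. Il6st, the shared gp130 chain, changed by -1.47 ± 0.36 with control 1 and -1.71 ± 0.30 without it, and its call was lost without control 2, control 3, control 4, knockout 1, knockout 3 or knockout 4 (adjusted p up to 0.0704). Il31ra, its relative, had 4.2, 6.45, 1.72 and 2.95 CPM in the knockouts, against 1.26, 26.7, 17.8 and 15.9 CPM in the controls; control 1 was below all knockouts, and the gene fell without it (-2.35 ± 0.34, adjusted p = 4.39e-04) but not with it (-1.98 ± 0.59, adjusted p = 0.0599).

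Genes of lymphoid and stromal cells gave few calls, to be read beside 4.49% falls and 1.6% rises over all genes. Of 13 lymphoid priming genes, Cd27 fell (-1.18 ± 0.30), a call lost without control 2, control 3, control 4, knockout 1 or knockout 4 (adjusted p up to 0.0939). Of 8 B cell genes tested, Cd79b, a chain of the B cell receptor, fell and Blnk and Bank1 rose. Cd79b had 5.14, 8.23, 6.54 and 11.6 CPM in the knockouts, against 43, 26, 28.3 and 30.0 CPM in the controls (-2.03 ± 0.25, adjusted p = 9.74e-05), and the groups were well apart. Blnk, with a change of 1.62 ± 0.44, lost its call without control 1, control 2, control 3, knockout 2, knockout 3 or knockout 4 (adjusted p up to 0.0986). Of 6 T and NK cell genes Cd5 rose (3.16 ± 0.46), and of 5 endothelial and stromal genes Col1a1 rose (3.45 ± 0.75), with at most 0.248 CPM of Cd5 and 0.330 CPM of Col1a1 in any control. The 4 T cell markers summed to 3.23 to 28.5 CPM in knockouts, highest in knockouts 3 and 4, and to 2.56 to 11.1 CPM in controls. Cd3d carried the high sums, at 26.6 and 18.9 CPM in knockouts 3 and 4. Cd3e and Trbc1 had at most 0.322 CPM in any library. Lck ran from 0.627 to 1.44 CPM in knockouts and from 1.62 to 2.15 CPM in controls. None of the 4 passed the test. The 4 endothelial and stromal markers summed to 1.32 to 3.40 CPM in knockouts and to 0 to 0.495 CPM in controls. Most of the knockout sum was Col1a1, at 1.065, 3.14, 1.93 and 1.18 CPM. Cxcl12 reached 1.07 CPM in knockout 3, and Cdh5 and Kdr had at most 0.18 CPM in any library. Of 14 surface genes of the sort gates Cd48 (-0.59 ± 0.15) and Eng (-0.70 ± 0.18) fell. The call of Cd48 was lost without control 3, control 4, knockout 1, knockout 2 or knockout 3 (adjusted p up to 0.104) and that of Eng without control 2, control 4, knockout 2, knockout 3 or knockout 4 (adjusted p up to 0.1). Without control 1, 6.7% of all genes fell and 4.41% rose. In that fit 3 of 13 lymphoid priming genes fell, and of 10 B cell genes 1 rose and 1 fell. Of 6 endothelial and stromal genes 1 rose and 2 fell, and of 15 surface genes 1 rose and 2 fell. The part of these marker levels in the other results was not tested.

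Knockout by CreER gave fewer calls in the same cell population. In the 8 CreER progenitor libraries, from other mice treated with tamoxifen, 23 genes changed (0.168%): 18 fell (0.131%) and 5 rose (0.0365%), and 21 were also called in the Mx1Cre progenitors, 91.3% of the CreER calls and 2.52% of the Mx1Cre calls. At an unadjusted p under 0.05 there were 1068 genes with CreER and 2389 with Mx1Cre. Tested directly, the knockout effect differed between the Cre lines (Mx1Cre minus CreER) for 41 genes (0.299%), 32 lower (0.234%) and 9 higher (0.0657%) with Mx1Cre. The number was 60 without Mx1Cre control 1 and 25 without CreER control 1 or CreER control 4. Cre line, inducing agent and mice cannot be told apart in this difference.

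Several of the deepest losses were smaller with CreER. Map7d3, with no read in any Mx1Cre knockout, averaged 2.57 ± 0.377 CPM in CreER knockouts and 5.42 ± 0.598 CPM in CreER controls (SD, n = 4 each). Gspt2 averaged 4.59 ± 0.823 CPM in CreER knockouts and 9.64 ± 1.75 CPM in CreER controls, a change of -1.07 ± 0.18 (adjusted p = 0.0266); the difference between the Cre lines was -3.24 ± 0.28 (adjusted p = 1.31e-05). The difference was -3.13 ± 0.27 for Ica1 (adjusted p = 1.31e-05) and -3.93 ± 0.52 for Btbd3 (adjusted p = 0.00176). All 3 genes had lower means in the knockouts of both lines and lay further down with Mx1Cre; Btbd3 did not pass the test with CreER (adjusted p = 0.47). Of the 88 genes that fell at least 8-fold with Mx1Cre, 80 had a negative log2 fold change with CreER, where the median over all genes tested was -0.005. With CreER 7 were called lower (7.95%, and 38.9% of the CreER falls), beside 0.131% of all genes. The effect was lower with Mx1Cre for 24, beside 0.234% of all genes. The 88 were chosen by their Mx1Cre values, so smaller changes with CreER are in part set by the choice. Kat7 itself averaged 0.438 ± 0.417 CPM in CreER knockouts and 69.6 ± 4.16 CPM in CreER controls, and its difference between the lines did not pass the test (1.84 ± 0.54, adjusted p = 0.326).

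Among the rises, Col4a1, Trp53i11, Robo3, Parm1 and Pf4 differed between the Cre lines. Trp53i11 averaged 6.69 ± 1.4 CPM in CreER knockouts and 6.17 ± 1.32 CPM in CreER controls, and the difference was 2.44 ± 0.35 (adjusted p = 0.00309). Col4a1 averaged 1.49 ± 0.408 CPM in CreER knockouts and 1.24 ± 0.417 CPM in CreER controls (3.50 ± 0.54, adjusted p = 0.00679). Both rose with Mx1Cre and did not pass the test with CreER, where the group means differed by less than their SD. The monocyte gene Ccr2 changed by -1.32 ± 0.19 with CreER (adjusted p = 0.00497) and -1.38 ± 0.19 with Mx1Cre (difference -0.05 ± 0.26, adjusted p = 1), and Hoxa9 changed by -1.16 ± 0.21 with CreER (adjusted p = 0.0403). The difference of the Hoxa9 effects was -1.24 ± 0.31 (adjusted p = 0.16). A difference that misses the threshold does not show that the lines act alike.

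In LSK cells of the same Mx1Cre mice, 1643 of 13861 genes changed (11.9%): 1077 fell (7.77%) and 566 rose (4.08%). Of the 615 genes that fell in progenitors, 362 also fell in LSK cells, 58.9% of the progenitor falls and 33.6% of the LSK falls. Of the 219 that rose, 85 also rose in LSK cells, 38.8% of the progenitor rises and 15% of the LSK rises. Of the 88 that fell at least 8-fold, 78 fell in LSK cells (88.6%), 7.24% of the LSK falls. The knockout effect differed between the populations (progenitor minus LSK) for 121 genes (0.873%), 98 higher (0.707%) and 23 lower (0.166%) in progenitors. With the mouse as a block, since each mouse gave both libraries, 208 genes differed, 176 higher and 32 lower.

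Megakaryocyte genes were among those that differed between the populations. Of the 19 megakaryocyte genes that gave 4 rises and no fall in progenitors, 10 fell and none rose in LSK cells; over all genes 1.6% rose in progenitors and 7.77% fell in LSK cells. F2r averaged 13.9 ± 2.63 CPM in knockout LSK cells and 50.3 ± 10.1 CPM in control LSK cells (SD, n = 4 each), and the difference of effects was 3.20 ± 0.28 (adjusted p = 5.31e-05). Itga2b averaged 53.6 ± 6.25 CPM in knockout LSK cells and 159.7 ± 28.6 CPM in control LSK cells (1.93 ± 0.21, adjusted p = 5.89e-04). Both genes fell in LSK cells, whereas in progenitors F2r rose and Itga2b did not pass the test. Trib2, a pseudokinase, averaged 1.3 ± 0.371 CPM in knockout LSK cells and 20.8 ± 8.32 CPM in control LSK cells, but in progenitors had 19.1, 10.9, 16.1 and 14.9 CPM in the knockouts, against 21.6, 14, 11.5 and 11.7 CPM in the controls (difference 4.05 ± 0.45, adjusted p = 5.89e-04). Rab27b, a GTPase of platelet granule release, differed by 4.18 ± 0.51, and Il1rl1 by 3.05 ± 0.43. Of the 24 erythroid genes, 8 fell and 1 rose in LSK cells, beside 7.77% and 4.08% of all genes.

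Other genes fell further in progenitors than in LSK cells. Hmgn3 averaged 3.2 ± 0.959 CPM in knockout LSK cells and 13.8 ± 1.31 CPM in control LSK cells, a change of -2.12 ± 0.31; the difference, progenitor minus LSK, was -3.17 ± 0.52 (adjusted p = 0.00736). Ica1 differed by -1.36 ± 0.23 (adjusted p = 0.00847) and Pomgnt2, a glycosyltransferase, by -1.47 ± 0.26 (adjusted p = 0.0103). Of the myeloid genes, Ccr2 differed by -1.11 ± 0.22 (adjusted p = 0.0267), Ms4a6c by -0.96 ± 0.20 (adjusted p = 0.0367) and Hoxa7 by -1.39 ± 0.28 (adjusted p = 0.0288). Ccr2 and Ms4a6c did not pass the test in LSK cells (-0.26 ± 0.15 and -0.27 ± 0.14), and Hoxa7 fell there by less (-1.22 ± 0.19). The number of genes that differed between the populations rested on single libraries: it was 325 without progenitor control 1, and from 57 to 66 without LSK control 1, 2 or 4, LSK knockout 1, 3 or 4, progenitor control 4 or progenitor knockout 1.

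**Figure D5:**
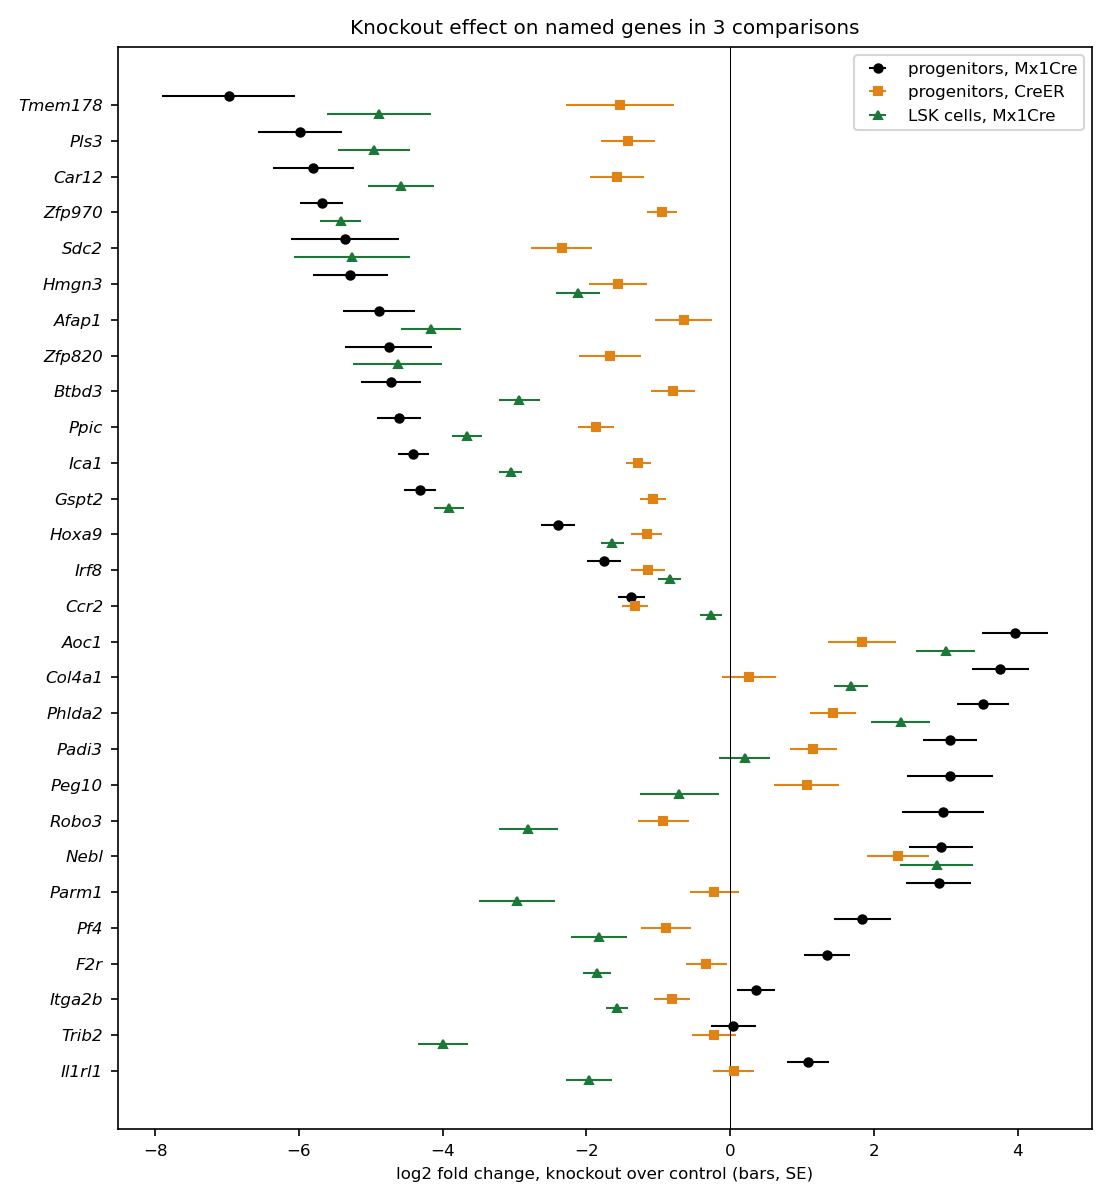
Log2 fold change, knockout over control, with its SE, of 28 named genes in Mx1Cre progenitors (black circles), CreER progenitors (orange squares) and Mx1Cre LSK cells (green triangles). Pls3, Car12 and Hmgn3 lie left of their CreER values, while Pf4, F2r, Parm1 and Robo3 are right of 0 in Mx1Cre progenitors and left of it in LSK cells.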

How the data were processed

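The labels' protocols give 50 ng of total RNA per sorted sample, TruSeq library kits and 80 bp paired reads from a NextSeq500. The submitters' processing notes name featureCounts and the mm10 build. The sources used here give no aligner, annotation or strand choice, so overlapping and antisense genes cannot be told apart. The authors deposited raw read counts for each of 27179 genes; 1904 without a symbol held 3.92% of the counts. A replicate is a mouse.

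The tests used edgeR 4.0.16 under R 4.3.3. Low counts were filtered (10 in enough libraries and 15 in total), libraries scaled by TMM, and genes tested by robust quasi-likelihood, with Benjamini-Hochberg adjusted p under 0.05 as the call. The 16 progenitor libraries were fitted together and share 1 estimate of the spread; the contrast with LSK cells used the 16 Mx1Cre libraries, where the mouse on the label pairs the populations. Fold changes stand with their SE. Without control 1 the filter was applied anew. Alternatives were DESeq2 1.42.0, limma 3.58.1 with voom quality weights, other filters, a fold of 1.5, sex, a replicate block, removal of the length trend (lowess, span 0.3) and leaving out each library. Counting floors cover counting error only.

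Named genes were the HBO1 subunits; the 12 largest rises and falls called alike with and without control 1, without overlap and a mean log2 CPM of 1 or more; up to 4 genes of each list by p; and the 4 lowest p-values each way for each difference and for calls made only without control 1. Gene models lacking a proper symbol, Xist and Y-linked genes were passed over, and the text names part of the rest. Other list members were named after their values were seen. The samples compared and the gene lists were chosen with earlier results of these data known.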

Additional observations from a re-analysis of the deposited data

Results flagged for a closer look

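Among the named genes, 1 library lay far from the other 3 of its group in the following cases, given as its gap to the nearest library divided by the range of the group, which exceeded the 95% value of Dixon's test. Chance gives about 1 such case in 20 groups, 238 groups having been tested. In the knockouts these were replicate 2 for Tmem178 (1.000), Sdc2 (1.000) and Bcl2 (0.862), replicate 1 for Zfp820 (1.000), Fcer1a (1.000), Tfr2 (0.869) and Eng (0.8295), replicate 3 for Bank1 (0.871) and replicate 4 for Phlda2 (0.890). In the controls these were control 1 for Peg10 (0.932), Hbb-b1 (0.873), Cd27 (0.955) and Il6st (0.831), and control 2 for Nebl (0.869) and Vwf (0.911). Further cases were knockout replicate 2 for F13a1 (0.900) and knockout replicate 1 for Ifi207 (0.978). A ratio of 1.000 means that the other 3 libraries were equal, here all at 0 counts. The gene length slopes of the knockouts and of the controls were tested by the same rule, and neither group was flagged.

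The knockout effect differed between the Cre lines, Mx1Cre minus CreER on the log2 scale, for Map7d3 (-8.29, a fitted value that depends on the prior count since its Mx1Cre knockouts are at 0), Zfp970 (-4.73), Pls3 (-4.57), Afap1 (-4.24), Car12 (-4.23), Btbd3 (-3.93), Hmgn3 (-3.72), Gspt2 (-3.24), Ica1 (-3.13), Ppic (-2.75) and Pomgnt2 (-1.97). It was higher with Mx1Cre for Robo3 (3.89), Col4a1 (3.50), Parm1 (3.12), Pf4 (2.73) and Trp53i11 (2.44).

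The effect differed between the populations, progenitor minus LSK, for Parm1 (5.84), Robo3 (5.78), Rab27b (4.18), Trib2 (4.05), Peg10 (3.77), Pf4 (3.66), F2r (3.20), Il1rl1 (3.05), Vwf (3.03), Padi3 (2.86), Col4a1 (2.10), Itga2b (1.93), Gp5 (2.37) and Il1r1 (1.80), and in the other direction for Hmgn3 (-3.17), Pomgnt2 (-1.47), Hoxa7 (-1.39), Ica1 (-1.36), Ccr2 (-1.11), Ms4a6c (-0.96) and Gbp3 (-0.77).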

How the results depend on the processing

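With all 8 libraries 834 genes changed between knockout and control progenitors. The count was 1264 in the DESeq2 test, 1350 with limma voom and quality weights (weight 0.0914 for control 1 and 0.338 for knockout 4), 337 when only the 8 libraries were fitted, 310 against a fold of 1.5 and 1355 without control 1 and knockout 4. An alternative chosen after seeing the data, the length trend removed and control 1 left out, gave 1968 genes, 888 higher and 1080 lower. Leaving out 1 library gave 550 (knockout 1) to 1537 (control 1). DESeq2 size factors, the other filters, sex, the replicate block and the length correction alone gave 768 to 1190. Falls outnumbered rises under each of these settings.

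The difference between Cre lines covered 41 genes, 120 in DESeq2, 74 under the added alternative and 25 (CreER control 1 or 4) to 60 (Mx1Cre control 1) without 1 library. The difference between populations covered 121 genes: 394 in DESeq2, 585 with limma, 205 with sex, 208 with the mouse as replicate block, 228 with the length trend removed, 44 against a fold of 1.5, 451 without both libraries, 577 under the added alternative, and 57 to 325 without 1 library.

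Knockouts and controls share replicate numbers but are different mice; the same-number correlations of deviations were -0.31, 0.47, 0.07 and -0.02, so the numbers do not pair them, and a replicate block gave 780 genes, and 39 for the Cre lines. Of 95 called genes among those named, 55 kept their call whichever library was left out, and none turned sign. The call held for 40 under every alternative in which they were tested. An alternative whose filter a gene did not pass was not counted. The largest rises and falls were chosen as called alike with and without control 1 and without overlap between the groups. For these genes the call without control 1 was fixed by the choice, and the sign largely so. The counts of 55 and 40 are therefore in part set by the choice of genes. Trib2, not called, had a log2 fold change of 0.05 with all libraries, -0.05 without control 3, -0.03 without control 4 and, over all libraries left out, from -0.087 (knockout 1) to 0.31 (control 1).

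Depth limits genes of few reads, where knockouts are at or near 0; intervals of single libraries were not formed. With 4 mice a group and gene length trends in control 1 and knockout 4, counts of calls are imprecise. The labels give neither the sort gate nor the strand setting.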
